A study of Mus musculus with 16 samples.

Results

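The genes described here encode proteins of neurosecretory granules and of regulated vesicle release, and their messenger RNA was followed across 4 conditions in P19 cells, a mouse embryonal carcinoma line that can be turned into neurons. There are 10 of them, chosen by name because Sybu and Scg2 rose strongly with let-7a in an earlier reading of these arrays, and 9 were measured among the 18249 genes tested. They were found through 12 probes whose gene name, checked by RefSeq accession, is Sybu, Scg2, Scg3, Scg5, Chga, Chgb, Pcsk1, Pcsk2, Snap25 or Syt1. The contrast of let-7a with control therefore chose the set, and its values are given as a description with no test.

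P19 cells carried a control transfection, a let-7a mimic (let-7a), a small interfering RNA against Sfpq (siSfpq), or mimic and siRNA together (let-7a + siSfpq). RNA was collected 48 h after transfection with siRNAs and mimics at 24 nM, and 16 Agilent arrays read it in 1 colour (Cy3), with 4 arrays per condition. What the control cells received is not stated for the arrays, and all conditions are transient transfections of a single cell line. Between 33733 and 38464 of 59305 spots per array were well above background. Arrays 1 and 2 of a condition differed by a median of 0.0560 to 0.0716 log2 units, which is within or below the 0.0653 to 0.0757 between spots of the same probe on 1 array. Other array pairs of a condition differed by 0.111 to 0.370. The mean of arrays 1 and 2 therefore entered as a single sample, so that n was 3 per condition, and the labels do not say whether these came from separate cultures. The methods speak of 3 transfected replicates per condition without saying which arrays they are, so that p values measure only the spread between these samples. Replicates 1 and 2 lay on 1 slide and replicates 3 and 4 on another, and each condition kept its position on both slides, so that position and condition cannot be told apart. In replicate 3, Sfpq, the target of the siRNA, fell by 0.52 log2 units with siSfpq, against 1.52 in replicates 1 and 2 and 1.36 in replicate 4. Results are therefore also given without replicate 3.

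Neuroendocrine cells and neurons store peptides in dense-core granules. Granins (Chga, Chgb, Scg2, Scg3) aggregate in the trans-Golgi network and help to form the granule core, prohormone convertases (Pcsk1, Pcsk2) cut the stored precursors, and Scg5, also called 7B2, is the chaperone of Pcsk2. Sybu encodes syntabulin, an adaptor that links kinesin-1 to vesicles carrying syntaxin, while Snap25 is a SNARE protein of the plasma membrane and Syt1 the calcium sensor of fast release. All these genes are typical of differentiated neurons and endocrine cells, whereas let-7 is a miRNA family that accumulates as stem cells differentiate. A miRNA guides Argonaute to messenger RNAs mainly through bases 2 to 8, its seed, and lowers them. The comparisons asked how each transfection changed messenger RNA and whether knockdown of Sfpq altered the changes seen with let-7a. The mature sequence of let-7a, which the mimic stands for, is shown because all contrasts turn on it. It is taken from RefSeq (GRCm38.p6, Mirlet7a-1, chr13:48538239-48538260, minus strand), with the seed in capitals.
mmu-let-7a-5p: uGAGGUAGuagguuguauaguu

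All 9 embryonal carcinoma markers looked for, among them Pou5f1, Nanog and Sox2, were well above background on all 4 arrays of every condition. So were all 8 neuron markers, among them Tubb3, Elavl3 and Stmn2, whereas only 4 of 7 endocrine markers were above background on all arrays of a condition, and glucagon (Gcg) was on no array. Of the 8 neuron markers, 6 were called higher and none lower with let-7a against control (median log2 change 1.54), against 4.93% of all genes called higher. With siSfpq against control, 5 were called lower and none higher, against 7.36% of all genes called lower. In let-7a + siSfpq, 4 were called higher against siSfpq (median 1.08, with 6.19% of all genes) and 5 lower against let-7a (median -1.34, with 2.2% of all genes). Their summed level on the log2 scale ranged from 15.0 to 15.1 in control, 15.5 to 15.7 in let-7a, 13.7 to 14.6 in siSfpq and 14.4 to 14.8 in let-7a + siSfpq. Stmn2 carried most of this sum, at a mean of 14.63 in control and 13.96 in let-7a + siSfpq, and between these conditions the median change of the 8 was -0.04. The sum of the 4 endocrine markers measured ranged from 12.23 to 12.80 in control, 13.30 to 14.03 in let-7a, 11.48 to 12.13 in siSfpq and 12.43 to 13.05 in let-7a + siSfpq. This sum was mostly Insm1, at a mean of 12.38 in control and 13.71 in let-7a. With let-7a against control, the median change of the 4 was 0.04, and 1 was called higher, against 4.93% of all genes. The embryonal carcinoma sum ranged from 16.1 to 16.3 in control and from 15.55 to 15.99 in let-7a, from 16.34 to 16.495 in siSfpq and from 15.98 to 16.10 in let-7a + siSfpq. Of the 9 markers, 3 were called lower and none higher with let-7a, and likewise in let-7a + siSfpq against siSfpq, where 2.07% and 4.14% of all genes were called lower. With siSfpq against control, 2 were called higher and 1 lower, against 6.31% and 7.36% of all genes. The summed level of mesendoderm markers went the other way from the granule genes. Of 5, 3 were measured, and their sum ranged from 10.02 to 10.51 in control, 8.78 to 9.29 in let-7a, 11.42 to 12.61 in siSfpq and 9.41 to 10.66 in let-7a + siSfpq. The mean of T (brachyury) was 10.16, 7.87, 12.07 and 9.68 in the same order, whereas that of Gata6 was 6.85 in control and 8.13 in let-7a, and Sox17 was above background on no array. None of the 4 glial markers measured was called with let-7a, where 7% of all genes were called. With siSfpq, 1 was called lower, against 7.36% of all genes. The part of such shifts in the results below was not tested. In these bulk samples, fewer cells of a type and less RNA per cell cannot be told apart.

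Levels are log2 normalized intensities of each gene's own probe, and for the set they are compared between samples of a gene, not between genes. The marker sums above, by contrast, added intensities of different probes and are weighted by the brighter ones. Sample values are listed in the order replicates 1 and 2, replicate 3, replicate 4. Sybu had a probe at mm9 chr15:44503512-44503571, at position 3060 of the transcript, and a second at chr15:44619136-44619195, at position 414, which was well above background on none of the 16 arrays. Its level was 5.72, 5.16 and 6.22 in control, and 9.99, 8.56 and 9.84 in let-7a. It was 5.90, 6.12 and 5.80 in siSfpq and 7.76, 7.49 and 7.73 in let-7a + siSfpq. The let-7a samples lay above all others, those of let-7a + siSfpq came next, and control and siSfpq overlapped.

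Scg2, the precursor of secretoneurin (probe at mm9 chr1:79431323-79431382), was at 10.18, 9.83 and 10.12 in control and at 12.74, 12.44 and 12.72 in let-7a. It was at 9.42, 9.27 and 9.29 in siSfpq and at 11.48, 11.48 and 11.39 in let-7a + siSfpq. The 4 conditions stood apart without overlap, in the order let-7a, let-7a + siSfpq, control and siSfpq. The same order of means held for 6 genes, namely Scg2, Scg3, Scg5, Chga, Chgb and Pcsk2. Sybu differed from it in having siSfpq above control, and Snap25 and Syt1 in having control above let-7a + siSfpq.

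Chgb, a granin measured by a probe with 10 spots per array (mm9 chr2:132620703-132620762), was at 10.698, 9.62 and 10.72 in control and at 13.41, 12.34 and 13.36 in let-7a. It was at 9.03, 8.98 and 9.18 in siSfpq and at 11.23, 11.16 and 11.39 in let-7a + siSfpq, again without overlap between the conditions. Chga (chr12:103803083-103803142) was at 9.79, 8.96 and 9.64 in control and at 12.18, 11.26 and 12.14 in let-7a. Its siSfpq samples, at 8.98, 8.77 and 8.91, overlapped control, whereas those of let-7a + siSfpq, at 10.86, 10.25 and 10.78, lay between control and let-7a. For both granins, replicate 3 had the lowest level of its condition in all 4 conditions.

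Scg3, which tethers granins to the granule membrane (chr9:75491320-75491379), was at 9.63, 9.004 and 9.65 in control and at 11.64, 10.75 and 11.76 in let-7a. It was at 8.45, 8.21 and 8.70 in siSfpq and at 9.72, 9.49 and 9.78 in let-7a + siSfpq, where it overlapped control. Scg5 (chr2:113616781-113616840) was at 11.98, 12.09 and 12.06 in control and at 13.15, 13.40 and 13.19 in let-7a. In siSfpq it was at 10.22, 11.65 and 10.28, with replicate 3 far above the others, and in let-7a + siSfpq at 12.12, 12.86 and 12.20.

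Of the convertases, Pcsk1 (chr13:75269727-75269786) was well above background on none of the 16 arrays and dropped out, so that no level or change is given for it. Pcsk2 had probes at chr2:143639649-143639708 and chr2:143641856-143641915, which were averaged. Its level was 7.66, 7.07 and 7.57 in control, 9.56, 8.86 and 9.44 in let-7a, 5.49, 6.51 and 4.802 in siSfpq and 7.85, 7.78 and 7.79 in let-7a + siSfpq. On the siSfpq arrays the second probe passed the background limit on 1 of 4, and the changes of the first probe are therefore given beside those of the gene.

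Syt1 (chr10:107935310-107935369) was at 8.90, 8.67 and 8.74 in control and at 9.77, 9.57 and 9.62 in let-7a. It was at 7.23, 8.02 and 7.16 in siSfpq and at 8.08, 8.72 and 8.04 in let-7a + siSfpq, the latter overlapping control through replicate 3. Snap25 (chr2:136607709-136607768) was at 13.69, 12.75 and 13.50 in control, 13.80, 12.79 and 13.87 in let-7a, 13.14, 12.64 and 13.25 in siSfpq and 13.64, 12.44 and 13.76 in let-7a + siSfpq. All its conditions overlapped, and replicate 3 was the lowest sample in each.

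**Figure D1:**
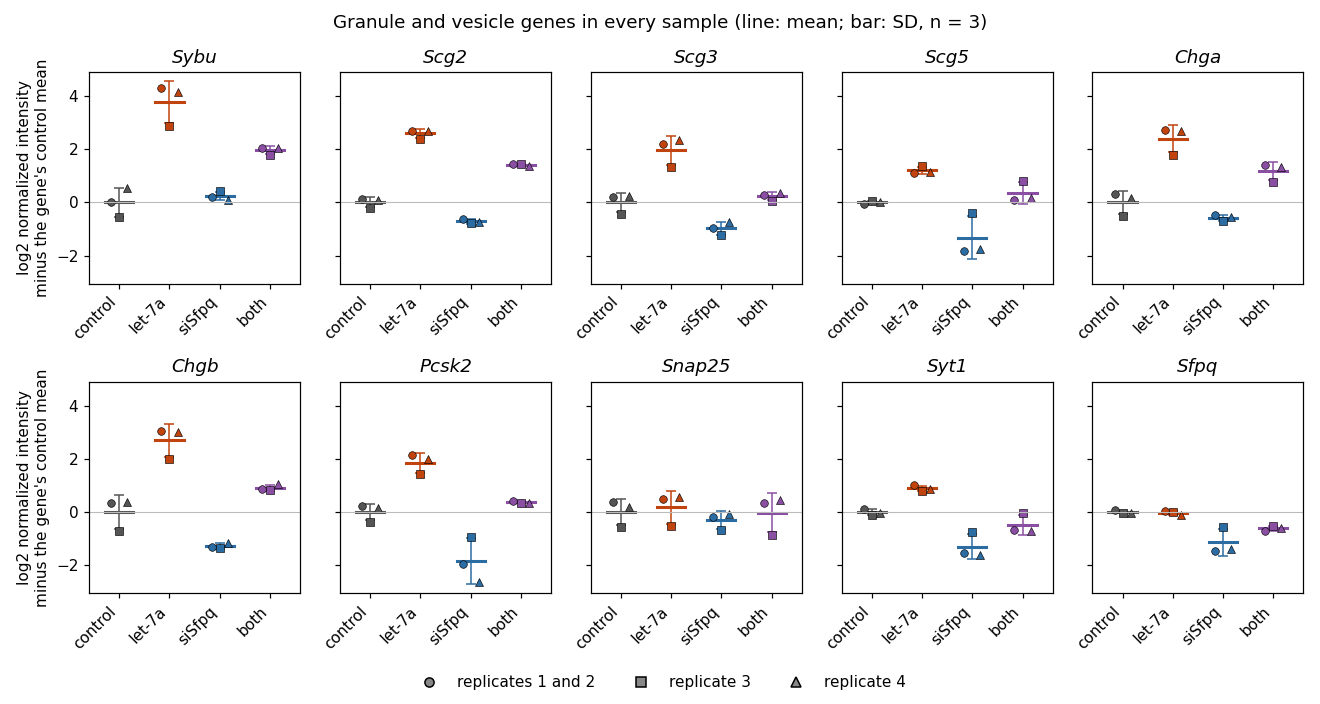
Level of each measured gene and of Sfpq in every sample, as log2 normalized intensity minus the gene's own control mean (vertical axis), for the 4 conditions (horizontal axis, with both standing for let-7a + siSfpq). Symbols are samples, lines are means and bars are SD (n = 3). The let-7a samples are the highest for every gene but Snap25 and Sfpq, and replicate 3 (squares) stands apart for Scg5, Pcsk2 and Syt1 in siSfpq.

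With let-7a against control, the contrast that chose the set, the median log2 change of the 9 measured genes was 1.95, against -0.04 over all genes. Sybu changed by 3.76 ± 0.45 (SD of the 3 replicate differences), which is a 13.5-fold difference, Chgb by 2.69 ± 0.040, Scg2 by 2.59 ± 0.025 and Chga by 2.40 ± 0.099. The size for Sybu depended on the processing, since its change was 3.06 (8.35-fold) with the authors' values, 2.68 (6.42-fold) with normexp background correction and 2.18 (4.54-fold) without the filter on dim probes, which averages in its second probe. Scg3 changed by 1.95 ± 0.19, Pcsk2 by 1.86 ± 0.061, Scg5 by 1.20 ± 0.094, Syt1 by 0.88 ± 0.019 and Snap25 by 0.17 ± 0.18. For 8 of the 9 genes all let-7a samples lay above all control samples, as was the case for 15.7% of all genes, and nothing is read from this count because the contrast chose the set. Scg2 and Chgb differed between replicates by far less than Sybu did.

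The comparison of let-7a + siSfpq with siSfpq set the means of other arrays against each other. It asked whether let-7a raised the same genes when Sfpq was lowered. Its standard errors and p values came from the fit of all conditions, and all arrays were normalized together, so that it is not fully separate from the contrast that chose the set. Here 7 of the 9 measured genes rose, at a limma adjusted p under 0.05 over all genes, and none fell, against 6.19% of all genes called higher. Scg2 rose by 2.12 (standard error 0.12, limma adjusted p = 1.59e-05), which is 4.36-fold. Chgb rose by 2.20 (standard error 0.31, limma adjusted p = 0.00347), Pcsk2 by 2.20 (standard error 0.35, limma adjusted p = 0.00588) and Chga by 1.74 (standard error 0.27, limma adjusted p = 0.00554). Sybu rose by 1.72 (standard error 0.35, limma adjusted p = 0.0161), which is 3.29-fold. Scg5 rose by 1.67 (standard error 0.32, limma adjusted p = 0.0127) and Scg3 by 1.21 (standard error 0.26, limma adjusted p = 0.0196). Each of these 7 was higher in 3 of 3 replicates. The median of the 9 genes was 1.72, against -0.02 over all genes.

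Syt1 was higher by 0.81 (standard error 0.23) but did not pass, at a limma adjusted p of 0.05003 that lay just above the threshold, and it passed with the replicate as a block (limma adjusted p = 0.0156). Snap25 differed by 0.27 (standard error 0.39, limma adjusted p = 0.700), and its difference was negative in replicate 3. The first Pcsk2 probe alone gave 1.32 (limma adjusted p = 0.00607). Without the filter on dim probes, Sybu gave 1.01 (limma adjusted p = 0.148), and with normexp it gave 1.06. When only these conditions entered the fit, Pcsk2 and Scg5 lost their calls, at limma adjusted p values of 0.0563 and 0.0985. Without replicate 3, all 9 genes were called, Snap25 at 0.50 (limma adjusted p = 0.00230), but so were 46.6% of all genes, against 10.3% with all samples. Without replicates 1 and 2 only Scg2 was called, which was the only gene called on the whole array, and without replicate 4 no gene on the array was called. These losses are therefore not particular to the set, but its calls, Scg2 aside, did not hold without replicates 1 and 2, and none held without replicate 4. Sfpq itself was higher in let-7a + siSfpq than in siSfpq by 0.52 (standard error 0.19, limma adjusted p = 0.0994), or by 0.76 without replicate 3 (limma adjusted p = 1.45e-04). Its part in the changes was not tested.

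**Figure D2:**
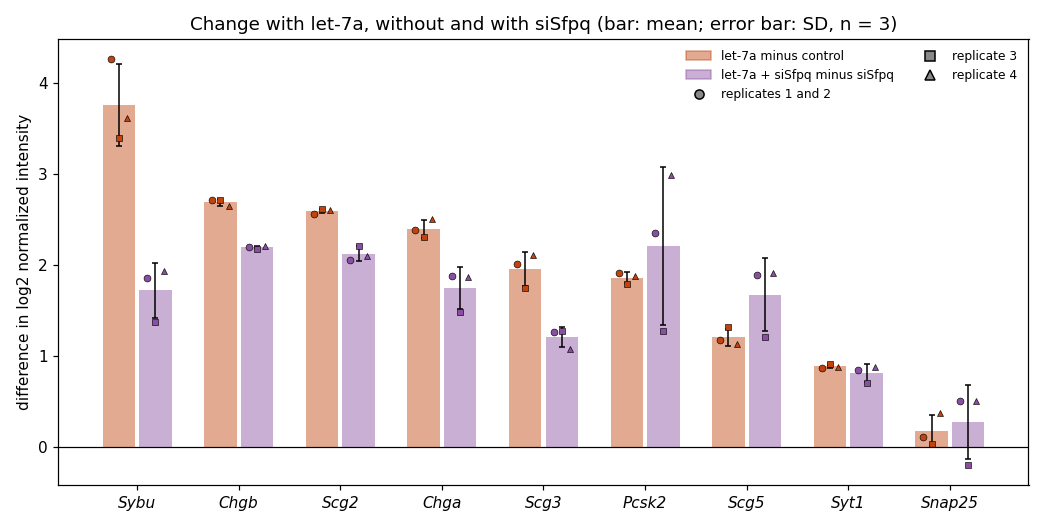
Difference in log2 normalized intensity with let-7a (vertical axis) for each measured gene (horizontal axis), without siSfpq (let-7a minus control) and with it (let-7a + siSfpq minus siSfpq). Bars start at 0 and give the mean, error bars the SD and symbols the 3 replicates. The Sybu bar falls from 3.76 to 1.72, whereas those of Syt1 are at 0.88 and 0.81.

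Set side by side, the let-7a change was smaller with siSfpq than without it for 6 of the 9 genes, or for 5 to 7 across the alternatives, a description with no test because it uses the contrast that chose the set. The difference between the changes was largest for Sybu, at -2.04 ± 0.36 (SD, n = 3), with -2.40, -2.03 and -1.68 in the 3 replicates, and it was -1.17 without the filter on dim probes. It was -0.75 ± 0.28 for Scg3, -0.65 ± 0.16 for Chga, -0.49 ± 0.053 for Chgb, -0.47 ± 0.060 for Scg2 and -0.08 ± 0.12 for Syt1. It was above 0 for Scg5 (0.47 ± 0.49), Pcsk2 (0.35 ± 0.82) and Snap25 (0.10 ± 0.32), in each case within its SD. Without replicate 3 it was 0.73 for Scg5, 0.80 for Pcsk2 and 0.26 for Snap25. The sign for Pcsk2 rested on its second probe, since the first probe gave 1.46 without and 1.32 with siSfpq, a difference of -0.15, as did the filter on all 16 arrays. It was also negative with normexp (-0.37), with the authors' values (-0.28) and without replicate 4 (-0.04). The sign was negative in 3 of 3 replicates for Sybu, Scg2, Scg3, Chga and Chgb.

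The comparison of siSfpq with control asked what knockdown of Sfpq did without the mimic. It shares the control arrays with the contrast that chose the set, so that Sybu and Scg2 are given as values and the other 7 measured genes were tested. Of these, 5 fell and none rose, against 7.36% of all genes called lower and 6.31% called higher. Pcsk2 fell by 1.83 (standard error 0.35, limma adjusted p = 0.0113), or by 1.10 on its first probe (limma adjusted p = 0.0114), and Scg5 fell by 1.32 (standard error 0.32, limma adjusted p = 0.0234). Syt1 fell by 1.30 (standard error 0.23, limma adjusted p = 0.00923), Chgb by 1.28 (standard error 0.31, limma adjusted p = 0.0235) and Scg3 by 0.97 (standard error 0.26, limma adjusted p = 0.0325). Each was lower in 3 of 3 replicates. Chga differed by -0.58 (standard error 0.27, limma adjusted p = 0.177) and passed with the replicate as a block (limma adjusted p = 0.00934), and Snap25 differed by -0.30 (standard error 0.39, limma adjusted p = 0.652).

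Scg2 changed by -0.76, -0.57 and -0.83 in the 3 replicates, a mean of -0.72. Sybu changed by 0.18, 0.96 and -0.43, so that its mean of 0.24 rested on replicate 3 and was -0.12 without it. Every measured gene of the set with a mean fall fell least in replicate 3. Scg5 changed by -0.44 in replicate 3, against -1.76 in replicates 1 and 2 and -1.77 in replicate 4, and Syt1 by -0.65 against -1.66 and -1.58. Pcsk2 changed by -0.56 against -2.17 and -2.76, values that include its second probe, mostly below background with siSfpq. Its first probe alone was at 9.34, 8.93 and 9.10 in control and at 7.91, 8.31 and 7.85 in siSfpq. When siSfpq was added to the mimic, the fall of every measured gene of the set but Snap25 was again smallest in replicate 3 (-1.17 for Chgb and -0.86 for Syt1). Sfpq changed there by -0.50, about as in replicate 4 (-0.49). A relation to the size of the Sfpq change was not tested. Over all arrays Sfpq fell by 1.13 (standard error 0.19, limma adjusted p = 0.00730). Without replicate 3, where 48.7% of all genes were called against 13.7% with all samples, all 7 genes were called lower, Scg5 at -1.75 (limma adjusted p = 3.27e-06) and Pcsk2 at -2.46 (limma adjusted p = 7.62e-05). The Pcsk2 value includes the dim second probe, and its first probe was not fitted alone without replicate 3. No gene on the whole array, and so none of the 7, was called without replicates 1 and 2, without replicate 4, or when only the 2 conditions entered the fit, where the limma adjusted p of the 5 genes lay between 0.0590 and 0.0878. Without the filter on dim probes, Pcsk2 and Syt1 alone were called.

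The comparison of let-7a + siSfpq with let-7a asked what knockdown did in the presence of the mimic, and it shares the let-7a arrays with the contrast that chose the set. Of the 7 genes tested, 5 fell and none rose, against 2.2% of all genes called lower and 0.964% called higher. Because of the shared arrays, this count is not independent of the contrast that chose the set. Chgb fell by 1.78 (standard error 0.31, limma adjusted p = 0.0147), Scg3 by 1.72 (standard error 0.26, limma adjusted p = 0.00962) and Pcsk2 by 1.48 (standard error 0.35, limma adjusted p = 0.0459). Syt1 fell by 1.38 (standard error 0.23, limma adjusted p = 0.0142) and Chga by 1.23 (standard error 0.27, limma adjusted p = 0.0355). Scg5 differed by -0.86 (standard error 0.32, limma adjusted p = 0.194), or a limma adjusted p of 0.0333 with the replicate as a block, and Snap25 by -0.21 (standard error 0.39, limma adjusted p = 0.890). As values alone, Sybu was lower by 2.23, 1.07 and 2.11 in the 3 replicates and Scg2 by 1.27, 0.97 and 1.33. The mean for Sybu, -1.80, became -1.17 without the filter on dim probes. Sfpq differed by -0.58 (standard error 0.19, limma adjusted p = 0.142). Without replicate 3, 6 of the 7 genes and 26.3% of all genes were called, against 3.17% of all genes with all samples, and without replicates 1 and 2 or without replicate 4 no gene on the array was. The first Pcsk2 probe alone gave -1.24 (limma adjusted p = 0.0140). The gene's mean over both probes lost its call with the slide as a block (limma adjusted p = 0.0504), without the intensity trend (0.0572) and without the dim filter (0.102), and Chga lost its call without that filter (0.0800) and with only these conditions in the fit (0.0619).

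**Figure D3:**
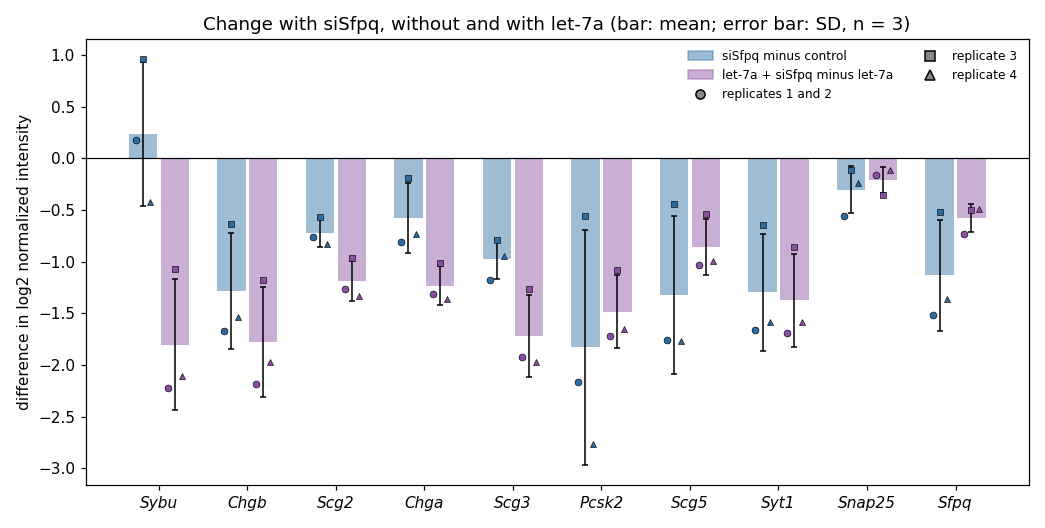
Difference in log2 normalized intensity with siSfpq (vertical axis) for each measured gene and for Sfpq (horizontal axis), without the mimic (siSfpq minus control) and with it (let-7a + siSfpq minus let-7a). Bars start at 0 and give the mean, error bars the SD and symbols the 3 replicates. The siSfpq change of Scg5 is -0.44 in replicate 3 and -1.76 and -1.77 in the others. With the mimic, Scg5 changes by -0.54 in replicate 3 and by -1.03 and -0.995 in the others, where Sfpq is at -0.50, -0.73 and -0.49.

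Between let-7a + siSfpq and control, which asked whether the transfections together moved the genes off their starting level, limma called none of the 7 genes tested, against 1.3% of all genes called higher and 0.247% lower. At an unadjusted p under 0.05, 2 were past the threshold. Chga differed by 1.16 (standard error 0.27, limma adjusted p = 0.0673) and Chgb by 0.91 (standard error 0.31, limma adjusted p = 0.222), the latter by 0.53, 1.54 and 0.67 in the 3 replicates. Both were higher in 3 of 3 replicates and were called with the replicate as a block (limma adjusted p = 0.00111 for Chga and 0.0260 for Chgb). Without replicate 3, where 18% of all genes were called against 1.55% with all samples, 3 genes were called, Chga and Chgb higher and Syt1 lower at -0.75 (limma adjusted p = 0.00199). Scg5, Pcsk2 and Scg3 differed by 0.35, 0.37 (0.22 on the first Pcsk2 probe) and 0.23, and Snap25 by -0.03. The Scg5 difference was 0.13, 0.77 and 0.14 in the 3 replicates. As values alone, Sybu was higher by 2.03, 2.33 and 1.503 and Scg2 by 1.30, 1.64 and 1.27. The mean for Sybu, 1.96, became 1.42 with the authors' values, 1.16 with normexp and 1.02 without the filter on dim probes. Sfpq differed by -0.61 (standard error 0.19, limma adjusted p = 0.181).

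Other genes of the pathway were taken from 7 lists, of which 95 genes outside the set were measured. Against siSfpq, let-7a + siSfpq had 26 of the 95 higher and none lower, against 6.19% of all genes called higher and 4.14% lower. For let-7a against control, 25 were higher and 1 lower, against 4.93% and 2.07% of all genes. For siSfpq against control, 22 were lower, against 7.36% of all genes, and 6 were higher, a share close to the 6.31% of all genes. For let-7a + siSfpq against let-7a, 15 were lower and none higher, against 2.2% and 0.964% of all genes, and against control 3 were higher and 1 lower, against 1.3% and 0.247%. With the replicate as a block, the calls rose from 26 to 48 for let-7a + siSfpq against siSfpq and from 26 to 41 for let-7a against control. They rose from 28 to 44 for siSfpq against control and from 15 to 33 for let-7a + siSfpq against let-7a. In the same comparisons, the called share of the whole array rose from 10.3% to 33.4%, from 7% to 21.7%, from 13.7% to 37.8% and from 3.17% to 13.2%. When only the conditions compared entered the fit, 7 list genes and 1.21% of all genes were called in let-7a + siSfpq against siSfpq, and no gene on the array for siSfpq against control, so that all list calls named below for that comparison were lost. Without the filter on dim probes, 17 list genes and 3.81% of all genes were called in let-7a + siSfpq against siSfpq. Without replicates 1 and 2, and likewise without replicate 4, no list gene was called in any comparison, and at most 3 genes were on the whole array, and without replicate 3 the calls were 56, 57, 56, 46 and 27 for let-7a, let-7a + siSfpq against siSfpq, siSfpq, let-7a + siSfpq against let-7a, and let-7a + siSfpq against control. The share of all genes called was then 29.7%, 46.6%, 48.7%, 26.3% and 18%.

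Granule matrix and processing genes had 5 of 10 higher in let-7a + siSfpq against siSfpq (median 0.88, against -0.02 over all genes, of which 6.19% were higher). In siSfpq against control, 5 were lower and 2 higher (median -0.84), against 7.36% and 6.31% of all genes. Vgf, a granin-like precursor, rose by 1.78 in let-7a + siSfpq against siSfpq (standard error 0.30, limma adjusted p = 0.00675) and by 1.71 with let-7a. Pcsk1n, the inhibitor of Pcsk1, fell by 1.90 with siSfpq (standard error 0.23, limma adjusted p = 0.00469) and Resp18, a granule luminal protein, by 1.55 (standard error 0.27, limma adjusted p = 0.00765). Qpct, which cyclizes the end of some peptides, rose instead by 1.59 with siSfpq (standard error 0.23, limma adjusted p = 0.00533) and by 1.65 with let-7a. The granule membrane cytochrome Cyb561 rose by 2.10 with let-7a (standard error 0.31, limma adjusted p = 0.00251) and fell by 1.69 when siSfpq was added to it (limma adjusted p = 0.0171).

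Of the neuropeptide genes, 11 of 16 were measured. In let-7a + siSfpq against siSfpq 5 rose, against 6.19% of all genes, while 5 fell with siSfpq, against 7.36%. Cartpt, the precursor of the CART peptides, rose by 2.43 (standard error 0.29, limma adjusted p = 0.00149) and fell by 2.22 (standard error 0.29, limma adjusted p = 0.00469). Pdyn, prodynorphin, was higher by 1.21 in let-7a + siSfpq than in siSfpq, but only 2 of 4 siSfpq arrays measured it above background. This size rests in part on signals below that limit, so that no p is given. Sst, somatostatin, was not well above background on any siSfpq array, but was on 3 of 4 control arrays. In siSfpq it was at least 1.37-fold lower than in control and at least 1.17-fold lower than in let-7a + siSfpq. These bounds set the brighter group against the lowest signal well above background on each array. The Sst calls, which are among those counted above, rest on siSfpq signals below that limit, so that no p is given.

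Genes of granule formation and docking had 6 of 14 higher in let-7a + siSfpq against siSfpq and 7 of 14 with let-7a, against 6.19% and 4.93% of all genes. Rab27a, a GTPase of granule docking, rose by 1.86 with let-7a (standard error 0.37, limma adjusted p = 0.0121) and by 1.34 with siSfpq present (limma adjusted p = 0.0431). Hid1, needed for granule maturation, rose by 1.31 with let-7a (limma adjusted p = 0.0160) and by 1.24 with siSfpq present (limma adjusted p = 0.0212). The priming factors Cadps and Cadps2 were both lower with siSfpq, since Cadps fell by 1.94 (limma adjusted p = 0.0159) and Cadps2 fell by 1.62 (limma adjusted p = 0.0163).

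The neuronal SNARE and exocytosis list had 5 lower and 1 higher of 25 in siSfpq against control, where 7.36% and 6.31% of all genes were. It had 7 of 25 higher in let-7a + siSfpq against siSfpq, against 6.19% of all genes. Doc2b, a calcium sensor, rose by 1.88 (standard error 0.27, limma adjusted p = 0.00421), and Syt11 rose by 1.40 (limma adjusted p = 0.0110) and fell by 1.29 with siSfpq (limma adjusted p = 0.0128). Syt4 was higher by 2.53 with let-7a, but only 2 of 4 control arrays had it above background. This size rests in part on signals below that limit, so that no p is given. Among vesicle membrane genes, 2 of 13 were higher in let-7a + siSfpq against siSfpq, against 6.19% of all genes. These were the vesicular glutamate transporter Slc17a6, by 1.99 (standard error 0.18, limma adjusted p = 5.27e-04), and Syn1, by 0.59 (limma adjusted p = 0.0392). Slc17a6 rose by 2.63 with let-7a (limma adjusted p = 4.14e-05), whereas the monoamine transporter Slc18a2, named after its values were seen because no other list gene fell with let-7a, changed by -0.64 (limma adjusted p = 0.0321).

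The ubiquitous SNAREs and convertases, which serve constitutive traffic, had none of 17 called by limma in the 4 comparisons other than siSfpq against control, with 2, 3, 2 and 2 at an unadjusted p under 0.05 for let-7a, let-7a + siSfpq against siSfpq, against let-7a and against control. In the same order, 7%, 10.3%, 3.17% and 1.55% of all genes were called. At these shares few calls would fall among 17 genes, so that nothing is read from their absence. Stx3 (0.52) and Vamp8 (0.56) were higher with siSfpq, where 6.31% of all genes were. Among the 5 kinesin-1 subunits, the motor that syntabulin binds, Kif5c rose by 0.93 with let-7a (limma adjusted p = 0.0116) and by 0.71 in let-7a + siSfpq against siSfpq (limma adjusted p = 0.0349). It fell by 0.61 with siSfpq (limma adjusted p = 0.0470), as did Klc1 by 0.57 (limma adjusted p = 0.0156).

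**Figure D4:**
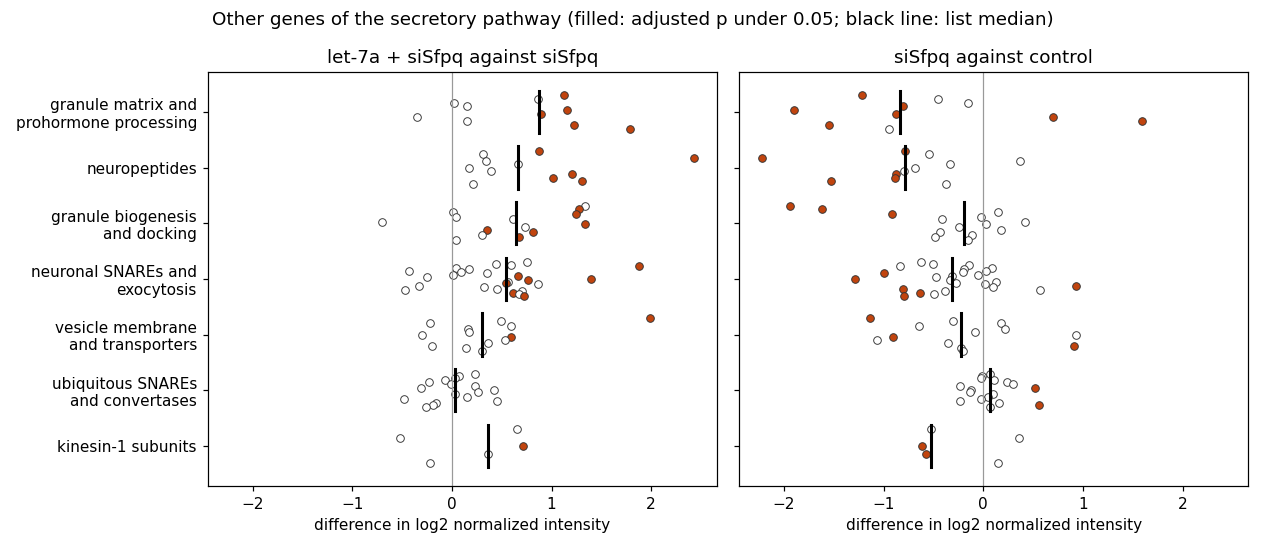
Difference in log2 normalized intensity (horizontal axis) of each measured pathway gene outside the set, by list (vertical axis), for let-7a + siSfpq against siSfpq and for siSfpq against control. Filled points passed a limma adjusted p of 0.05 and black lines are list medians. The median of the granule matrix list is 0.88 on the left and -0.84 on the right, and that of the ubiquitous list is 0.03 and 0.06.

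Over the 12 samples, the profiles of the 8 genes other than Snap25 had pairwise Pearson correlations of 0.67 to 0.98 (median 0.91, 28 pairs), and Snap25 correlated with them at 0.088 to 0.53. The samples share conditions, slides and replicates, so that these values are a description. Outside the set, the genes most like Sybu were Abtb1 (r = 0.98), Plch2 (0.98), Asphd1 (0.98), Gdap1l1 (0.98) and Pcp4 (0.97). Those most like Scg2 were Cavin2 (0.99), Lin7a (0.98), C130021I20Rik (0.98), Adcyap1r1 (0.98) and Kcnn2 (0.98). Likeness of shape did not mean likeness of size, since Sybu changed by 3.76 with let-7a and Abtb1 by 0.55.

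Promoter sequence was looked at because 8 genes of the set moved together. RefSeq windows from 250 bases before to 50 bases after the start site (GRCm38.p6) were found for 8 of the 10 genes, in 9 windows, with Syt1 in 2, and not for Sybu and Snap25. Both strands were searched. The cyclic AMP response element TGACGTCA (CRE) lay in the windows of 3 genes, Scg2, Chgb and Pcsk1, and in 1.79% of all 32851 windows. It sat at bases -68 to -61, -72 to -65 and -78 to -71 from the start site. Its core TGACG, which each full element also holds, lay in the windows of 7 of the 8 genes and in 20.8% of all windows. Stretches around the element of the 3 genes are shown, with the CRE and any further core in capitals, Scg2 at chr1:79440047-79440134 on the minus strand, Chgb at chr2:132781530-132781617 and Pcsk1 at chr13:75089739-75089826 on the plus strand. The stretch of Scg3, at chr9:75684057-75684126 on the minus strand, holds the core alone and is shown beside them.
Scg2: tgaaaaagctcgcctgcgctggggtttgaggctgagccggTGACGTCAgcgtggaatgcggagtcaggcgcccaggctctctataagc
Chgb: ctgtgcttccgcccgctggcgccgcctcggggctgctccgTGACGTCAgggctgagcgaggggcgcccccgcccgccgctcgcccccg
Pcsk1: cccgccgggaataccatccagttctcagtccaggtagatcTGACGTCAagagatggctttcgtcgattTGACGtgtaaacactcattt
Scg3: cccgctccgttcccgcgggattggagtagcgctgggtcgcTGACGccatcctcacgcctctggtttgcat

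The CRE was found both in Scg2 and Chgb, which differed by 2.59 and 2.69 with let-7a, and in Pcsk1, which was not above background in any condition. The parts of the RE1 element bound by the neuronal repressor REST, TTCAGCACC and GGACAGC, were searched separately and present only in the Scg2 window among the set, and in 0.371% and 6.56% of all windows. In Scg2 they lay on the strand opposite to the gene at bases -7 to 2 and -14 to -8, with no base between them. A whole RE1 with its spacing was not searched for. The E-box CAGCTG was found in 4 genes, Chga, Chgb, Pcsk2 and Syt1, and in 16.3% of all windows. A match is a run of letters and not a measured site.

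**Figure D5:**
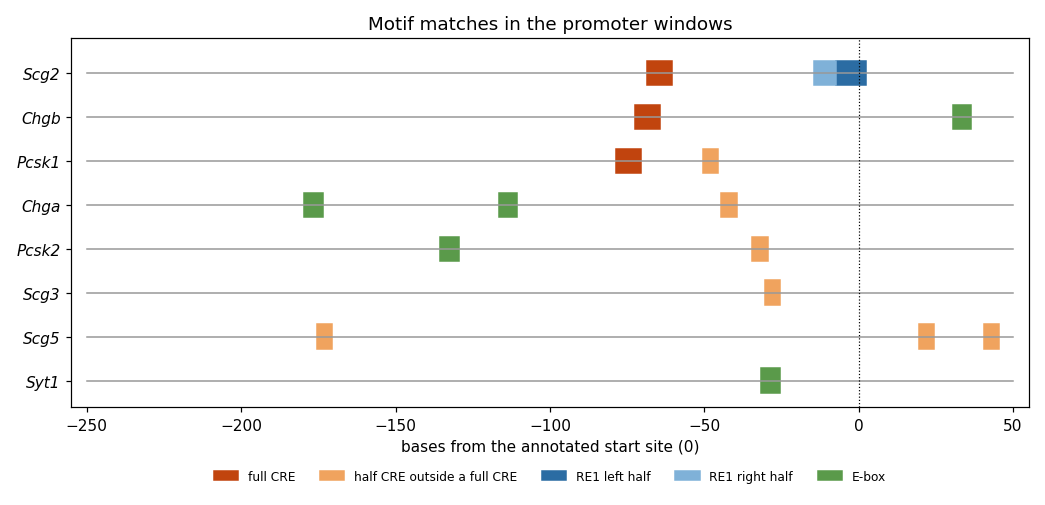
Matches of the searched motifs in the promoter windows of 8 genes (vertical axis) by distance in bases from the annotated start site (horizontal axis), both strands, with both Syt1 windows drawn on 1 line. Colours name the motifs. The full CRE lies between bases -78 and -61 in Scg2, Chgb and Pcsk1.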

How the data were processed

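The authors deposited scanner intensities of 16 arrays of 1 colour, extracted per the file headers with Agilent Feature Extraction 10.7.3.1 as background-subtracted and detrended signals that are not normalized between arrays. They also deposited a table of log2 values, which per the labels and methods were normalized with limma. Here the processed intensities were put on a log2 scale and quantile normalized with limma 3.58.1 in R 4.3.3, with tables read by the data.table package, version 1.17.8. Outlier spots were left out and spots of a probe averaged. A probe was kept where some condition had it well above background on each of its 4 arrays (for most of its spots), and 39 probes with a missing value were dropped. Probes were named through RefSeq accessions or symbols, 18905 probes named only by a region or their own identifier were left out, and probes of a gene were averaged, which left 18249 genes.

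A single limma model with an intensity trend gave the condition means over 12 samples, and a gene was called where its p, adjusted by Benjamini-Hochberg over all genes, was below 0.05. The set, the lists, the markers and the motifs were chosen with earlier results of these data known. Named genes are the set, Sfpq, up to 3 called genes per list and comparison with the largest change, and the 5 genes most like Sybu and Scg2. Same-numbered samples deviated together (correlations of 0.285 to 0.707 over 18 pairs), so that the replicate can serve as a block. Alternatives were the scaling, background correction, filter, probe choice, the authors' values, separate arrays, replicate or slide as a block, fewer groups, no trend and leaving out each replicate. The number of arrays limits the precision. Protein features were not analysed here. Figures were drawn with matplotlib 3.10.9 in Python 3.11.15.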

Additional observations from a re-analysis of the deposited data

How the results depend on the processing

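The direction of each change between 2 conditions named for the set held under all alternatives run, except that without replicate 3 Snap25 turned to 0.11 in let-7a + siSfpq against control and Sybu to -0.12 in siSfpq against control, the first with no call and the second with no test. Over the replicates left out these ranged from -0.18 to 0.11 and from -0.12 to 0.57. The median change with let-7a, 1.95, lay between 1.88 and 2.03. The sign of the difference between the let-7a changes with and without siSfpq turned for Pcsk2 under 5 alternatives given in the report, for Snap25 without replicates 1 and 2 (-0.05) and for Syt1 with scaling to the 75th percentile (0.00094), and held elsewhere. The median difference between the let-7a changes with and without siSfpq was -0.47 and became -0.40 with scaling to the 75th percentile, -0.51 with normexp and -0.51 with the authors' values. Without a filter on dim probes, the calls among the set became 2 for siSfpq against control and 3 for let-7a + siSfpq against let-7a, and 17 list genes were called in let-7a + siSfpq against siSfpq. When only the groups compared entered the fit, 0 genes of the set and 0 list genes were called for siSfpq against control, and 7 list genes for let-7a + siSfpq against siSfpq. For let-7a + siSfpq against control, the calls among the set became 1 with 16 separate arrays, 1 with the slide as a block and 2 with the replicate block, and 2 list genes were called with the authors' values. With 16 separate arrays, list calls were 41 for let-7a, 47 for let-7a + siSfpq against siSfpq, 46 for siSfpq, 32 for let-7a + siSfpq against let-7a and 14 for let-7a + siSfpq against control, with 19.8%, 32.5%, 36%, 14.2% and 7.91% of all genes called. With the replicate block they were 41, 48, 44, 33 and 14 (the last against 8.17% of all genes), and among the set and Sfpq the block changed no call beside those given with the results. Leaving out replicates gave 0 to 9 calls in the set for let-7a + siSfpq against siSfpq, 0 to 7 for siSfpq, 0 to 6 against let-7a and 0 to 3 against control. List calls then ranged from 0 to 56, 0 to 57, 0 to 56, 0 to 46 and 0 to 27 in the same order as above. Shares over all genes for the replicate block and for the replicates left out are given in the report. The cause of these differences was not tested.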
